A study of Mus musculus with 6 samples.

Results

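A group of 6 genes of fuel choice and energy sensing in muscle is described here by the DNA methylation of their start regions: Ppard, Pdk4, Ucp2, Acadm, Prkaa1 and Gbe1. They were chosen as the entries of the deposited methylation table that are keyed to a RefSeq transcript of 1 of these 6 genes, each of which had 1 region. The 6 regions held 127 measured cytosine positions, out of 268725 positions in 10755 regions of the whole table. Methylation was measured by reduced representation bisulfite sequencing (RRBS), which cuts DNA with a restriction enzyme, converts unmethylated cytosines with bisulfite and reads the fragment ends. DNA was isolated from quadriceps muscle of C57BL/6 mice, in 3 exercised samples, from mice that ran on a motor-driven treadmill over 4 weeks of training, and 3 sedentary control samples. Per the labels' protocols this was done 3 hours after the final bout on the treadmill. The labels give no age, no sex and no statement that the samples of a group were separate animals, so a p-value covers only the spread among these 6 samples, which may be technical. The question the design poses is which sites differ in methylation after training. Quadriceps is a mixture of cell types, and a change of methylation within a cell type cannot be told apart here from a change in the mixture.

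Muscle at rest and in long exercise burns fatty acids, and in short hard effort it burns glucose and glycogen. The nuclear receptor PPAR delta, encoded by Ppard, binds fatty acids and switches on genes of fat oxidation. Among its known targets is Pdk4, a kinase that inhibits pyruvate dehydrogenase and so keeps pyruvate from being made into acetyl-CoA. Acadm encodes the medium-chain acyl-CoA dehydrogenase of beta-oxidation, and Ucp2 a carrier protein of the inner mitochondrial membrane. Prkaa1 encodes the alpha1 catalytic subunit of AMPK, the kinase that responds to a low energy charge. Gbe1 encodes the branching enzyme that gives glycogen its branched form. Methylation of CpG dinucleotides at a promoter is often found with low transcription, and most promoters rich in CpG are little methylated in normal tissue.

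The promoters of Pdk4, Acadm and Prkaa1 are printed first because the measured cytosines in them could be placed on the sequence, and the motif around each cytosine went with its level. Each sequence is the RefSeq promoter window of the assembly GRCm38.p6, from 250 bases before the start site to 50 bases after it, written 5′ to 3′ on the strand of the gene, with CCGG and TCGA in capitals.
Pdk4 (chr6:5496229-5496528, minus strand): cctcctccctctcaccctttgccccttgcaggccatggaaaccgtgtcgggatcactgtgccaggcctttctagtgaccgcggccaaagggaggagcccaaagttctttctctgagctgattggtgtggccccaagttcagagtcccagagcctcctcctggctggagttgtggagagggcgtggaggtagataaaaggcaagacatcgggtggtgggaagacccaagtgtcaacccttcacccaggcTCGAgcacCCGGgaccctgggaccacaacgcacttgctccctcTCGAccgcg
Acadm (chr3:153944594-153944893, minus strand): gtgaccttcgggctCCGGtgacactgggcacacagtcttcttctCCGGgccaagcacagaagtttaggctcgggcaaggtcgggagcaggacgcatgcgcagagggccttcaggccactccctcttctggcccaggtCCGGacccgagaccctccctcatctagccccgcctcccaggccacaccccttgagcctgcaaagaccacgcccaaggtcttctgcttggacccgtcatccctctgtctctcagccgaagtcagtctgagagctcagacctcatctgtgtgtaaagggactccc
Prkaa1 (chr15:5143611-5143910, plus strand): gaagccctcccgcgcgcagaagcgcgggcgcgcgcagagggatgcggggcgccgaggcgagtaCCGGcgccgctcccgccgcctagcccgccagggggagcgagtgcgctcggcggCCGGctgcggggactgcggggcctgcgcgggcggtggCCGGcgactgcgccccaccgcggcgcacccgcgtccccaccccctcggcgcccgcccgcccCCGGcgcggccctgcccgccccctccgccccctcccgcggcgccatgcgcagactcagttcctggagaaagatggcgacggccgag
Both motifs read the same on either strand and cannot overlap each other. The Pdk4 window held 1 CCGG and 2 TCGA, the Acadm window 3 CCGG and no TCGA, and the Prkaa1 window 4 CCGG and no TCGA. Of all 22862 promoter windows in the RefSeq table, 51.6% held CCGG and 21.7% held TCGA. CCGG is the site cut by MspI, the usual enzyme of RRBS, and TCGA is the site cut by TaqI, another enzyme in use for it. The enzymes used for these libraries are not named in the sources used here.

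Positions in the deposited table carry mm9 coordinates, so they were placed on these windows by their distance from the start site and not by coordinate. With the start site 2000 bases from the upstream end of each 3000-base region, 79.8% of 39802 listed positions within promoter windows fell on a CpG, against 48.1% and 47.1% when the start site was shifted by 1 base either way. All 5 positions of Pdk4, 4 of 15 of Acadm and 24 of 32 of Prkaa1 lay within the windows, and each fell on a CpG. No position of Ppard or Ucp2 lay within its window, and only 5 of 37 in the window of Gbe1 fell on a CpG, so these 3 genes were not placed. At another offset 93.3% of 15 Gbe1 positions fell on a CpG. Distances from the start site given for these 3 genes assume the same 2000 bases and may be off.

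The 33 placed cytosines split by motif. Of the 11 at CCGG or TCGA, 10 had a mean level of 10% or more over the 6 samples. Of the 22 at any other CpG, 0 did. The same split was found over the 2303 regions of the table in which every position within the window fell on a CpG. In these regions 7316 cytosines at CCGG averaged 61.3% and 741 at TCGA averaged 61.5%, while 20928 at other CpGs averaged 2.32%. Of all cytosines at 10% or more in them, 95.8% (7802 of 8143) were at CCGG or TCGA. The split was alike in both groups. Cytosines at the 2 motifs averaged 61.4% ± 1.44 in exercised samples and 61.2% ± 1.35 in sedentary samples, and the other CpGs averaged 2.39% ± 0.269 in exercised samples and 2.25% ± 0.332 in sedentary samples (SD, n = 3 each, exact two-sided permutation p = 0.8 and 0.7, smallest possible 0.1).

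**Figure D1:**
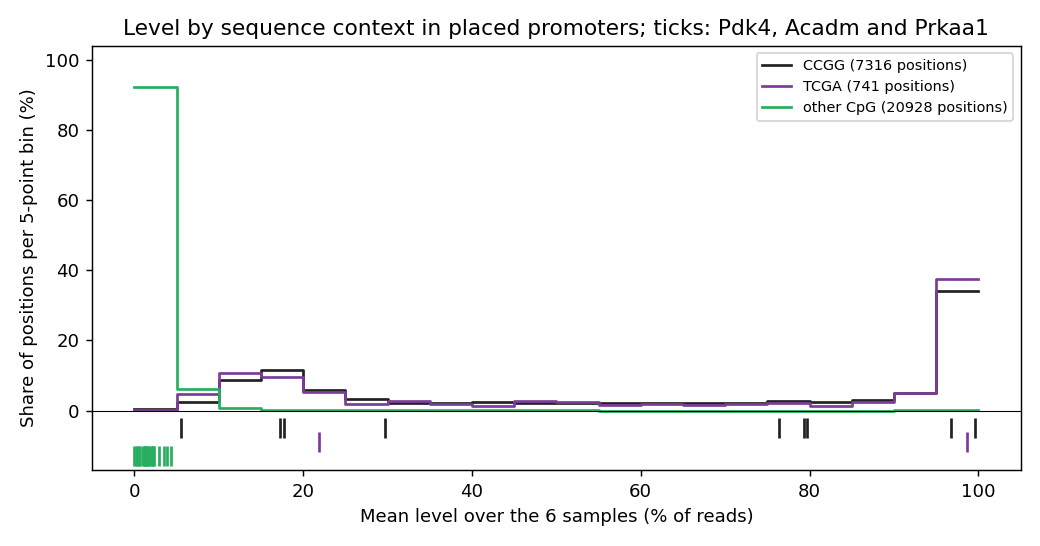
Share of positions (%) in bins of 5 percentage points of the mean level over the 6 samples, for cytosines in CCGG motifs, in TCGA motifs and in other CpGs in the placed promoters of the whole table. Ticks under the curves mark the single cytosines of Pdk4, Acadm and Prkaa1 in the same colours: all 22 at other CpGs lie under 10%, and 10 of the 11 at CCGG or TCGA lie above it.

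As background on the method and not as a result, a cut site in RRBS lies at the very end of a library fragment, and such ends are filled in with added nucleotides during library preparation. How far the levels at CCGG and TCGA stand for the DNA of the muscle was not tested. The members are therefore described below both over all positions and over the positions under 10%, which among the placed ones include 1 such site.

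Over the 6 members, 90 of the 127 positions averaged under 10% and 37 averaged 10% or more. The 37 carried most of the methylated reads, between 90.7% of them in Prkaa1 and 97.5% in Pdk4. The cytosines of a CpG on its 2 strands are listed as neighbouring positions, and 36 such pairs were complete in the members. In 25 pairs both strands were under 10%. In 9 of the other 11 the strands were more than 20 percentage points apart. In Prkaa1 the pair 96 and 95 bases upstream of the start site stood at 96.7% on one strand and 17.3% on the other, averaged over the 6 samples. In Pdk4 the pair 42 and 43 bases downstream stood at 98.6% and 21.9%, and in Ucp2 the pair 303 and 304 bases upstream stood at 99.4% and 14.1%. In Acadm the pair 234 and 235 bases upstream, at CCGG, was alike on both strands, at 79.4% and 76.4%.

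**Figure D2:**
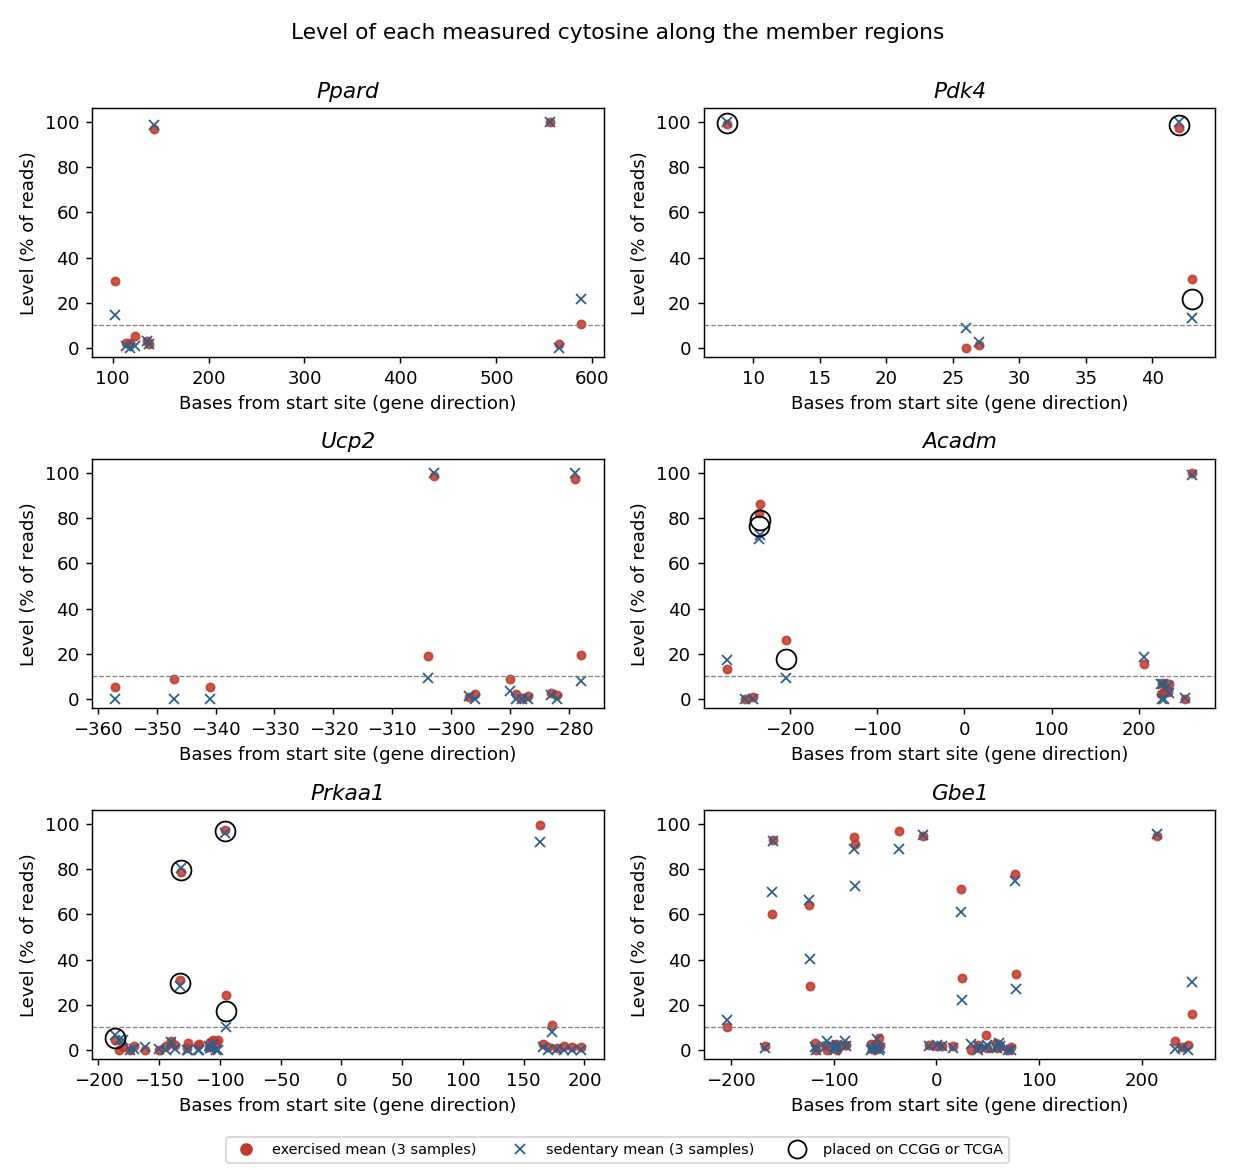
Mean level (% of reads) of every measured cytosine of the 6 members by distance from the start site in bases along the gene, as filled circles for 3 exercised samples and crosses for 3 sedentary samples. Open rings mark cytosines placed at CCGG or TCGA, drawn at the mean of all 6 samples, and the dashed line is at 10%: in each gene some cytosines stand high among neighbours near 0.

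In region level, the share of all reads of a region that were methylated, each of the 6 genes averaged higher in the exercised samples, and none passed the test adjusted over all 10021 tested regions (edgeR quasi-likelihood test, adjusted p = 0.999831 for each). Across all tested regions 61% were higher in exercised samples and 0% passed the adjusted test. The median difference was 2.33 percentage points over the 6 members and 0.39 over all regions. In 3 members, Acadm, Prkaa1 and Gbe1, every exercised sample lay above every sedentary sample, as in 4.91% of all regions, and in 0 members the reverse held, as in 2.35% of all regions. At an unadjusted edgeR p under 0.05 stood 2 members, Ucp2 and Prkaa1, against 2.37% of all regions, and both were higher, against 1.46% of all regions past that limit and higher. With 3 samples a group the exact permutation test cannot go below 0.1.

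**Figure D3:**
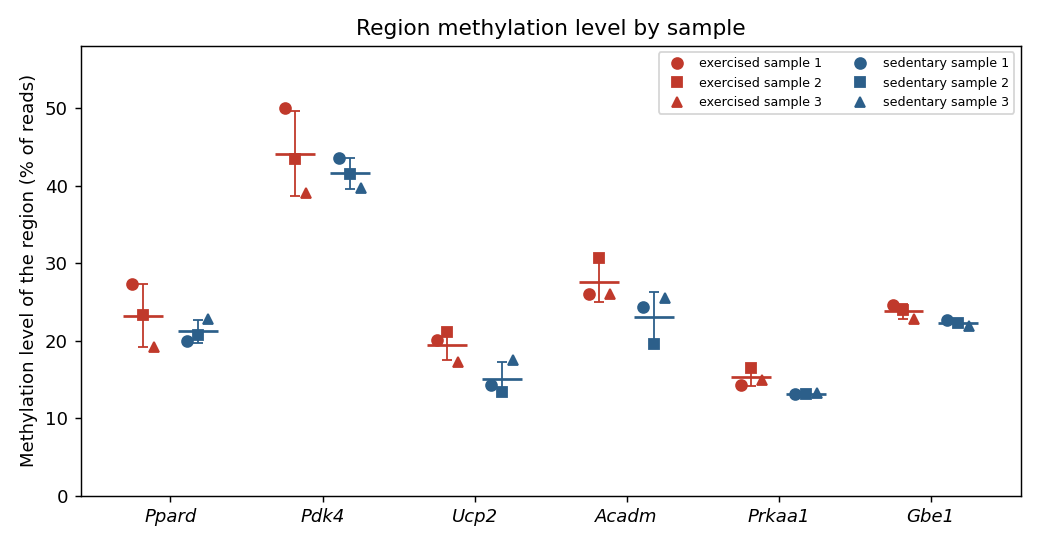
Region methylation level (% of reads) of the 6 members in each sample, exercised left of sedentary, with the mean as a line and the SD as a bar (n = 3 each). The exercised points of Acadm, Prkaa1 and Gbe1 all lie above the sedentary points of the same gene, while those of Ppard, Pdk4 and Ucp2 overlap them.

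The region of the receptor gene Ppard (mm9, chromosome 17, 28367699 to 28370698) had 10 measured positions, from 103 to 588 bases downstream of the start site, at a mean coverage of 76.8 reads. Its level was 27.2%, 23.3% and 19.1% in exercised samples 1 to 3, against 20%, 20.8% and 22.8% in sedentary samples 1 to 3. The exercised samples spread over the whole sedentary range, with exercised sample 1 the highest and exercised sample 3 the lowest of all 6. The difference of 2.04 points (SE 2.49) was smaller than its error (edgeR unadjusted p = 0.411). Leaving out exercised sample 1 gave 0.0243 points, and leaving out exercised sample 3 gave 4.08 points. Among its positions, the cytosine 103 bases downstream varied most over the samples. It read 66.2%, 11.1% and 11% in exercised samples, against 5.26%, 25.8% and 12.5% in sedentary samples. The part of this cytosine in the spread of the region was not tested. The 6 positions under 10% gave 3.93%, 2.30% and 1.97% in exercised samples, against 1.82%, 0.747% and 1.05% in sedentary samples, and these groups did not overlap. Among them the cytosine 118 bases downstream read 3.90%, 1.22% and 1.38% in exercised samples, while none of 49, 181 and 32 reads was methylated in sedentary samples, which allows levels of up to 6.12%, 1.66% and 9.38% (edgeR unadjusted p = 0.0427). The cytosine 123 bases downstream read 3.90%, 4.88% and 6.85% in exercised samples, against 1.96%, 0.559% and 0% of 32 reads in sedentary samples. The authors' deposited table gives that cytosine an unadjusted p of 0.014.

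The region of Pdk4, the brake on pyruvate dehydrogenase (chromosome 6, 5445279 to 5448278), had only 5 positions, 8 to 43 bases downstream of the start site. Its region level was the highest of the 6, at 42.8% ± 3.97 over the 6 samples (SD), and its range lay apart from that of Acadm, the next highest. The 3 positions at 10% or more, all at CCGG or TCGA, held 63.9% of its reads. How far the region level stands for the DNA of the muscle was not tested. The level of the region was 50%, 43.4% and 39.0% in exercised samples, against 43.6%, 41.5% and 39.6% in sedentary samples. The groups overlapped, and the difference of 2.55 points (SE 3.39) turned to -0.383 points without exercised sample 1 (edgeR unadjusted p = 0.721 with all samples). The CCGG in the capitals of the Pdk4 sequence, 8 bases downstream, read 100%, 99.0% and 98.8% in exercised samples, against 100% in every sedentary sample. The CpG of the last TCGA was read on both strands. On one strand it stood at 100%, 91.7% and 100% in exercised samples, against 100% in every sedentary sample. On the other it stood at 50%, 26.8% and 15.2% in exercised samples, against 16.4%, 13% and 10% in sedentary samples, with exercised samples 1 and 2 the highest and exercised sample 3 inside the sedentary range. The remaining CpG, 26 and 27 bases downstream, lay outside both motifs and was under 10%. Its cytosine 26 bases downstream had no methylated read among 10, 24 and 12 reads in exercised samples, which allows levels of up to 30.0%, 12.5% and 25.0%, against 11.1%, 5.88% and 9.09% in sedentary samples. The groups did not overlap there, on 11 to 18 reads per sedentary sample, and the edgeR unadjusted p was 0.0925. The authors' deposited table gives it an unadjusted p of 0.00465.

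The region of the carrier gene Ucp2 (chromosome 7, 107639854 to 107642853) had 15 positions within a stretch from 357 to 278 bases upstream of the start site, at the lowest mean coverage of the 6, 29.1 reads. Its level was 20.1%, 21.1% and 17.2% in exercised samples, against 14.3%, 13.3% and 17.5% in sedentary samples. Exercised samples 1 and 2 lay above all sedentary samples, and exercised sample 3 lay just under sedentary sample 3. The difference was 4.42 points (SE 1.72, edgeR unadjusted p = 0.0254, exact permutation p = 0.2), and it stayed between 3.56 and 5.65 points when any 1 sample was left out. The 11 positions under 10% gave 3.65%, 3.26% and 1.77% in exercised samples, against 0%, 0.649% and 0.806% in sedentary samples, without overlap (edgeR unadjusted p = 0.0292). The 4 positions at 10% or more form the CpG pairs 303 and 304 bases and 278 and 279 bases upstream, each with one strand near 100% and the other strand low. The low strands averaged 9.14% and 8.02% in sedentary samples, so they reached 10% only through their exercised values, and the level of the 4 together is not compared between the groups. The near-full strands averaged 98.7% ± 2.18 and 97.2% ± 4.81 in exercised samples, against 100% in every sedentary sample at both. The low strand 278 bases upstream read 21.6%, 25.0% and 12.5% in exercised samples, against 5.56%, 7.41% and 11.1% in sedentary samples. The groups did not overlap there, but this cytosine was named after its values were seen, and its edgeR unadjusted p was 0.271. The low strand 304 bases upstream read 13.3%, 18.6% and 25.0% in exercised samples, against 5%, 4.76% and 17.6% in sedentary samples, with overlap. Further upstream, the cytosine 347 bases before the start site read 0%, 15.4% and 11.8% in exercised samples on 13 to 19 reads, against 0% in every sedentary sample on 11 to 37 reads, where the limits of a count of 0 run from 8.11% to 27.3%. Its edgeR unadjusted p was 0.0619.

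The region of Acadm, the dehydrogenase of medium-chain fat oxidation (chromosome 3, 153606608 to 153609607), had 15 positions in clusters on either side of the start site, from 272 bases upstream to 261 bases downstream. Its level was 26.0%, 30.6% and 26.0% in exercised samples, against 24.3%, 19.5% and 25.5% in sedentary samples. The groups did not overlap, though the nearest samples of the groups were less than 1 point apart. The difference was 4.47 points (SE 2.38, edgeR unadjusted p = 0.0507, exact permutation p = 0.1). The 6 positions at 10% or more include the cytosine 204 bases upstream, which averaged 25.9% in exercised samples and 9.43% in sedentary samples. It reached 10% only through its exercised values, so the level of the 6 together is not compared between the groups. The 9 positions under 10% averaged 2.26% ± 1.66 in exercised samples and 3.41% ± 1.85 in sedentary samples, and differed by -1.14 points (edgeR unadjusted p = 0.537). The share of the region's reads that fell on the 6 high positions was 46.1%, 51.2% and 41.3% in exercised samples, against 36.6%, 31.4% and 46.1% in sedentary samples. With each position given equal weight the difference in level was 2.63 points, and the groups still did not overlap. The 2 strands of the first CCGG in the Acadm sequence were its clearest partly methylated site. The cytosine 235 bases upstream read 83.9%, 84.5% and 77.8% in exercised samples, against 62.2%, 79.3% and 70.6% in sedentary samples. The cytosine 234 bases upstream read 93.5%, 83.9% and 81.7% in exercised samples, against 88.3%, 54.4% and 74.3% in sedentary samples. Both overlapped between the groups, with an edgeR unadjusted p of 0.407 and 0.307. The highest level was at the cytosine 261 bases downstream, which averaged 100% in exercised samples and 98.9% ± 1.86 in sedentary samples.

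The region of Prkaa1, the energy sensor (chromosome 15, 5091861 to 5094860), had 32 positions from 186 bases upstream to 197 bases downstream and the lowest level of the 6. It stood at 14.3%, 16.5% and 14.9% in exercised samples, against 13.1%, 13.1% and 13.2% in sedentary samples. The sedentary samples lay close together and below every exercised sample. The difference was 2.10 points (SE 0.651, edgeR unadjusted p = 0.0351, exact permutation p = 0.1), with 1.48 points when exercised sample 2 was left out and 2.57 points when exercised sample 1 was. The 27 positions under 10% gave 1.61%, 3.52% and 2.05% in exercised samples, against 0.613%, 0.966% and 1.51% in sedentary samples, also without overlap (edgeR unadjusted p = 0.0252). The 5 positions at 10% or more averaged 65.8% ± 6.73 in exercised samples and 60.9% ± 6.46 in sedentary samples, with overlap. With each position of the region given equal weight the difference was 1.55 points, and the groups overlapped too. Of the 4 CCGG in the Prkaa1 sequence, the second and the third were read on both strands at 10% or more. At the second the strands averaged 79.7% and 29.7% over all samples, and the groups overlapped on each. At the third the high strand averaged 97.5% ± 2.39 in exercised samples and 95.9% ± 2.47 in sedentary samples. Its low strand, 95 bases upstream, read 30%, 16% and 27.3% in exercised samples, against 9.76%, 14.9% and 5.88% in sedentary samples, which did not overlap. Its edgeR unadjusted p was 0.232, and the authors' deposited table gives an unadjusted p of 0.0471. Next to that site, the cytosine 103 bases upstream had the smallest edgeR unadjusted p among the members' positions, 0.0221, and read 0%, 4.37% and 5.67% in exercised samples, against 0.518%, 0% and 0% in sedentary samples. The groups overlapped there, since exercised sample 1 had no methylated read among 73, which allows a level of up to 4.11%. The cytosine 163 bases downstream was nearly full, at 98.6%, 100% and 100% in exercised samples, against 79.1%, 96.6% and 100% in sedentary samples (edgeR unadjusted p = 0.0482). Its difference of 7.66 points was 1.25 points without sedentary sample 1.

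The region of the glycogen branching enzyme gene Gbe1 (chromosome 16, 70312332 to 70315331) had the most positions, 50, from 204 bases upstream to 249 bases downstream. Its level was 24.6%, 23.9% and 22.7% in exercised samples, against 22.6%, 22.3% and 21.9% in sedentary samples. The groups did not overlap, and the difference was 1.51 points (SE 0.586, edgeR unadjusted p = 0.2, exact permutation p = 0.1). With each position given equal weight the difference was 0.747 points, and the groups overlapped. The 35 positions under 10% averaged 1.86% ± 0.693 in exercised samples and 1.54% ± 0.681 in sedentary samples, with overlap (edgeR unadjusted p = 0.554). The 15 positions at 10% or more averaged 64.3% ± 4.38 in exercised samples and 63.2% ± 2.93 in sedentary samples, also with overlap. The highest were 215, 13 and 36 bases from the start site, the first of them downstream. They averaged 94.7% ± 0.827, 94.9% ± 5.85 and 97.0% ± 2.69 in exercised samples, against 95.7% ± 0.994, 95.2% ± 3.08 and 88.7% ± 3.65 in sedentary samples. At the cytosine 36 bases upstream the groups did not overlap, with 94.9%, 96.0% and 100% in exercised samples, against 84.6%, 89.8% and 91.7% in sedentary samples. The cytosine 79 bases upstream had the smallest edgeR unadjusted p of Gbe1, 0.0934, and read 100%, 82.1% and 90.9% in exercised samples, against 75.9%, 83.9% and 57.9% in sedentary samples. The other way round, the cytosine 249 bases downstream read 10.9%, 13.8% and 23.8% in exercised samples, against 27.6%, 30.2% and 32.4% in sedentary samples, without overlap.

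Of the 127 member positions, 122 could be tested singly, and none passed the adjusted edgeR test, as for all 253960 positions tested (0%), the smallest adjusted p of a member position being 0.919. At an unadjusted edgeR p under 0.05 stood 4 of them, all higher in exercised samples, which is close to the 3.32% of all positions. The groups were apart with exercised samples higher at 8 positions and lower at 3, against 4.01% and 2.15% of all positions. The authors' deposited table gives 9 of the 122 an unadjusted p under 0.05, or 7.38%, against 3.13% of all positions. Of these 7 were higher and 2 lower in exercised samples, the lower ones in Pdk4 and Gbe1, and 4 of the 7 lay in Prkaa1. At 3 of those 4, between 183 and 197 bases downstream, the exercised means were between 1.48% and 1.85% and the sedentary means between 0.178% and 0.192%. The one 183 bases downstream read 1.83%, 1.85% and 1.85% in exercised samples, on 109, 54 and 108 reads. For these 3 the edgeR unadjusted p ran from 0.217 to 0.296. Whether the same reads covered all 3 was not tested.

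On positions under 10% alone, Ppard, Ucp2 and Prkaa1 were apart and higher in exercised samples, as were 8.17% of 8738 regions tested that way, while 4 of the 6 members were higher, near the 58.4% of all regions. At an unadjusted edgeR p under 0.05 stood Ucp2 and Prkaa1, against 4.33% of those regions. With each position given equal weight Ucp2 and Acadm were apart and higher, against 5.88% of all regions, and all 6 members were higher, against 56.7%. No member passed the adjusted test in either setting, and Pdk4, with 2 positions under 10%, was not tested on those.

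**Figure D4:**
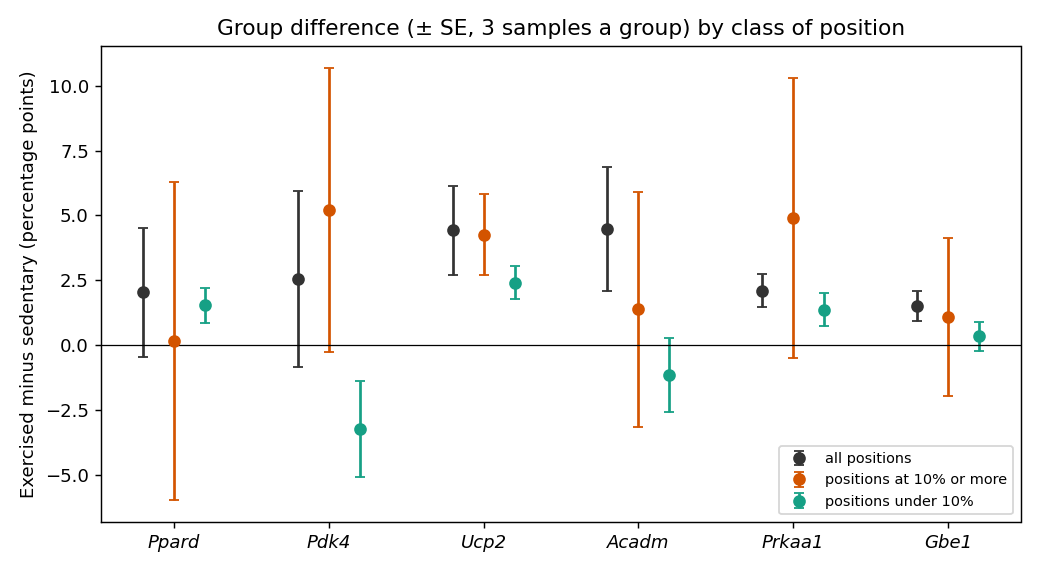
Difference in level, exercised minus sedentary (percentage points, with its SE over 3 samples a group), for each member over all its positions, over positions at 10% or more and over positions under 10%. Ppard, Prkaa1 and Gbe1 lie above 0 in all 3, and Ucp2 lies above 0 over all positions and over positions under 10%. Acadm and Pdk4 lie above 0 over all positions and below 0 over positions under 10%. In Ucp2 2 positions, and in Acadm the cytosine 204 bases upstream, reach 10% only through the exercised samples. The class at 10% or more is therefore not compared between the groups for these genes.

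Exercised sample 1 was the highest of all 6 on positions between 10% and 50%, at 27.7% over the whole table against 19.8% to 26.5% in the others. In the members this class read 31.6% in exercised sample 1 against 16.4% to 22.1% in the others, and exercised sample 1 was the highest in Ppard, Pdk4, Prkaa1 and Gbe1. The class of the members includes the Ucp2 and Acadm cytosines that reach 10% only through the exercised samples. Its level is therefore not compared between the groups. Exercised sample 2 was the highest on positions under 10%, at 2.42% over the whole table against 1.59% to 2.19% in the others, and at 3.75% in the members against 1.23% to 2.09%. It was the highest there in Prkaa1 and Gbe1. What part these libraries have in the members' differences was not tested beyond leaving out each sample in turn. Total calls ran from 9153526 in sedentary sample 3 to 18656340 in sedentary sample 2, and the members' calls from 3978 to 9143 in the same samples.

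The order of the region levels was Pdk4 at 42.8%, Acadm at 25.3%, Gbe1 at 23.0%, Ppard at 22.2%, Ucp2 at 17.3% and Prkaa1 at 14.2%, as means of the 6 samples. The ranges over samples overlapped between every pair of neighbours in this order except Pdk4 and Acadm. Within a sample, Acadm was above Gbe1 in 5 of 6 samples, Gbe1 above Ppard in 4, Ppard above Ucp2 in 6 and Ucp2 above Prkaa1 in 6. The share of a region's reads that fell on positions at 10% or more, over all 6 samples, had the same order. This share was 63.9% in Pdk4, 41.6% in Acadm, 34.4% in Gbe1, 33.8% in Ppard, 28.9% in Ucp2 and 20.7% in Prkaa1. That the 2 orders match is largely fixed by the definition of the class. Positions at 10% or more are set by level in these same data and held 90.7% to 97.5% of the methylated reads of a member. How far the order of the levels stands for the DNA of the muscle was not tested.

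In the 6 lists of other genes of these pathways, 105 of 158 genes had a tested region, giving 108 regions. None passed the adjusted test and 1 stood at an unadjusted edgeR p under 0.05, against 2.37% of all regions. Of the 108, 64 were higher and 44 lower in exercised samples, while 61% of all regions were higher. The median difference was 0.318 points, against 0.39 over all regions. Regions apart between the groups numbered 5 higher and 0 lower, against 4.91% and 2.35% of all regions. These shares of all regions are also the ones to set beside the counts of each list below.

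Among genes of fatty acid uptake and oxidation, 13 of 22 regions were higher, the median difference was 0.465 points, and 2 were apart and higher. Acads, the short-chain counterpart of Acadm, read 33.9%, 37.3% and 33.5% in exercised samples, against 29.4%, 30.7% and 31.1% in sedentary samples, with no overlap (edgeR unadjusted p = 0.0516, adjusted 0.999831). Etfa, a subunit of the flavoprotein that takes electrons from these dehydrogenases, averaged 25.2% ± 3.78 in exercised samples and 21.5% ± 1.40 in sedentary samples, with overlap. Among the PPAR receptors, their partners and coactivators, 13 of 21 regions were higher, with a median of 0.648 points and 0 apart. The PPAR target Angptl4, an inhibitor of lipoprotein lipase, averaged 31.7% ± 2.67 in exercised samples and 35.5% ± 5.41 in sedentary samples.

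Among genes of pyruvate dehydrogenase and lactate control, 11 of 17 regions were higher, with a median of 0.338 points and 1 apart and higher. Ldha, a lactate dehydrogenase subunit, averaged 32.7% ± 3.50 in exercised samples and 29.7% ± 2.004 in sedentary samples, and Pcx, pyruvate carboxylase, 17.2% ± 2.08 in exercised samples and 18.9% ± 1.90 in sedentary samples. Only 5 of 9 uncoupling and carrier genes were measured. Of these 4 were higher, with a median of 2.72 points, 0 apart and 0 at an unadjusted edgeR p under 0.05. The carrier genes Slc25a12 (aspartate and glutamate) and Slc25a4 (ADP and ATP) averaged 17.9% ± 3.39 and 18.8% ± 1.998 in exercised samples, against 15.1% ± 1.93 and 17.2% ± 1.25 in sedentary samples.

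Among the AMPK subunits, kinases and targets, 14 of 20 regions were higher, with a median of 0.826 points and 2 apart and higher. Strada, a partner of the AMPK kinase LKB1, read 30.1%, 33.3% and 46.3% over 3 positions in exercised samples, against 47.1%, 45.2% and 59.0% in sedentary samples. The groups overlapped, and the difference was -13.8 points (SE 6.58, edgeR unadjusted p = 0.0243, adjusted 0.999831). Crtc2, a coactivator that AMPK phosphorylates, averaged 23.3% ± 1.82 in exercised samples and 20.8% ± 1.25 in sedentary samples. Among genes of glycogen and glucose entry, the list nearest to Gbe1, 9 of 23 regions were higher, the median difference was -0.27 points, and 0 were apart. Phka2, a phosphorylase kinase subunit, averaged 36.2% ± 3.81 in exercised samples and 39.9% ± 4.56 in sedentary samples, and Nhlrc1, a ubiquitin ligase of glycogen metabolism, 22.1% ± 0.513 in exercised samples and 21.1% ± 2.05 in sedentary samples.

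**Figure D5:**
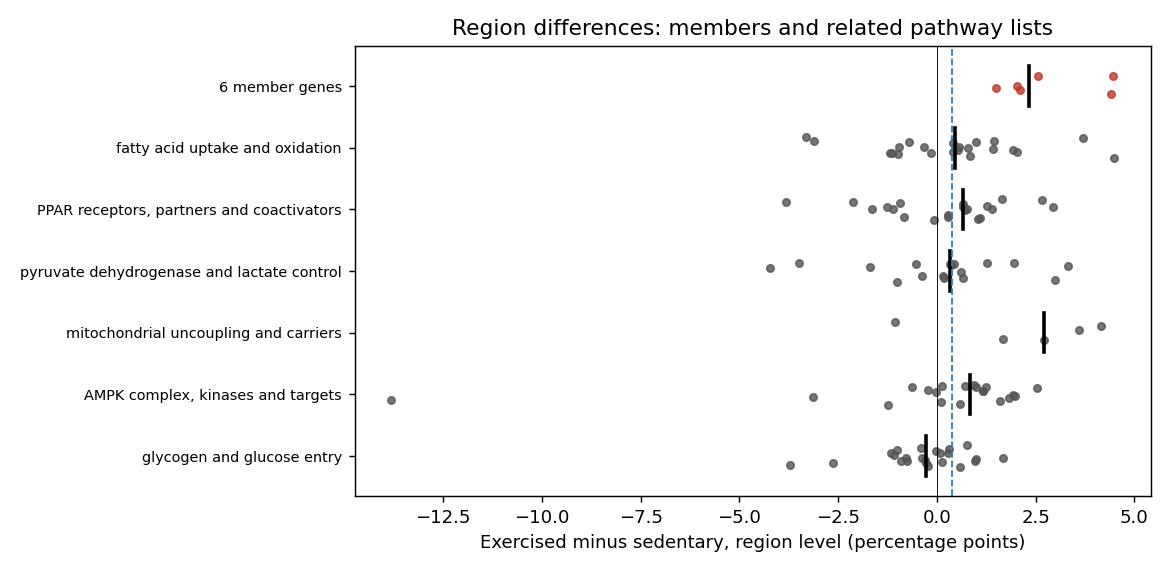
Difference in region level, exercised minus sedentary (percentage points), for the 6 members and for each tested region of the 6 pathway lists, with the median of each row as a bar and the median of all 10021 regions as a dashed line at 0.39. The members lie between 1.51 and 4.47 points, and the point farthest to the left is Strada at -13.8 points.

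The labelled tissue could be checked only through methylation, and most marker genes had no tested region. Levels of a marker list are means of its region levels, with each region given equal weight. Of the muscle fibre markers 3 of 14 had a tested region, and their mean level ran from 26.5% to 38.8% in exercised samples, against 22.0% to 43.0% in sedentary samples. The ranges of the 2 groups also overlapped for markers of satellite cells (1 of 4 genes measured), endothelium (3 of 7), leukocytes (2 of 8), fibroblasts (3 of 5) and Schwann cells (1 of 3). Adipocyte markers (3 of 7) ran from 68.8% to 71.6% in exercised samples, against 72.4% to 79.3% in sedentary samples. The 3 regions, of Lep, Slc2a5 and Fabp4, were lower in exercised samples, against 3904 of all 10021 regions. Of them 1 was apart and lower, against 2.35% of all regions. The edgeR unadjusted p was 0.114 for Lep, 0.00992 for Slc2a5 and 0.743 for Fabp4, with an adjusted p of 0.999831 for each. The other adipocyte markers of the list had no tested region. The part of the cell mixture in the members' values was not tested.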

How the data were processed

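RRBS was run on 3 exercised and 3 sedentary quadriceps samples. Per the submitters' processing notes, the genome build was mm9 and the tools included Bismark 0.7.7 and Bowtie 0.12.9, and also Trim Galore 0.2.5 with cutadapt 1.0, with no role stated. The authors deposited 1 table with the methylated fraction and the coverage count of each position per sample, with every count at least 10. The authors' deposited table also holds, per position, an unadjusted p-value and a score, the difference of the group means of the fractions. Fraction times coverage was whole within 0.00236 of a read, which gave methylated and unmethylated read counts. The depth gives single positions a precision of several percentage points, and limits from a count of 0 (3 counts over the coverage) cover counting error only.

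Counts were summed over each 3000-base region with at least 3 positions and compared in edgeR 4.0.16 (R 4.3.3) by its quasi-likelihood test, without a dispersion trend, with a term per sample and a group term on methylated counts. P-values were Benjamini-Hochberg adjusted over all 10021 regions or all 253960 positions at 0.05. The procedure was tested on simulated data. Single values were compared by exact two-sided permutation over 10 splits. Alternatives used limma 3.58.1. Symbols and promoter sequences came from RefSeq tables for GRCm38.p6. The labels do not place the start site, which was found by matching positions to CpGs. All 6 member regions passed the minimum of 3 positions, and 5 of 127 positions, fully methylated or fully unmethylated in all samples, could not be tested.

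The members, lists and tests were chosen with earlier results of these data known. Positions to name singly were up to 3 per member with the highest level and the 2 with the smallest edgeR p, but not all are named above. Left out by level were the Ppard cytosines 143 and 556 bases downstream. Left out by p were Acadm 226 and 229 bases downstream, Ucp2 341 bases upstream and Gbe1 56 bases upstream. All of those left out by p were higher in exercised samples. Without exercised sample 2 the difference was 2.5 points at Acadm 226 bases downstream and 0 at the others left out by p. Others that are named, at which the groups did not overlap or which the placed motifs hold, were chosen after their values were seen, and from each list the 2 regions with the smallest p were named, except 1 that is not reported here.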

Additional observations from a re-analysis of the deposited data

How the results depend on the processing

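No region passed the adjusted edgeR or limma test under any alternative tried, and no member did. All 6 members stayed higher in exercised samples, with these exceptions: Pdk4 fell to -0.383 points without exercised sample 1, and on positions under 10% alone, an alternative chosen after seeing the data, Pdk4 stood at -3.23 points (2 positions, no test) and Acadm at -1.14 points. Leaving out each sample gave 0.0243 to 4.08 points for Ppard, -0.383 to 5.11 for Pdk4, 3.56 to 5.65 for Ucp2, 2.66 to 5.66 for Acadm, 1.48 to 2.57 for Prkaa1 and 1.09 to 2.02 for Gbe1.

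Regions at an unadjusted p under 0.05 numbered 237, and 169 to 601 with 1 sample left out, the highest without exercised sample 3 (530 higher, 71 lower). With all samples 146 were higher and 91 lower, against 150 and 195 without sedentary sample 2 and equal numbers of each, 212 in all, without exercised sample 2. They numbered 384 with equally weighted positions, 410 after quantile normalization and 378 on positions under 10%. Positions at that limit numbered 8426, and 4440 to 7142 with 1 sample left out. With the strands of a CpG summed, 1 position passed the adjusted edgeR test (adjusted p = 0.00615), outside the members and named after its value was seen, in Grb10, at 0% in every exercised sample and 9.71% ± 1.67 in sedentary samples. Ucp2 had no value at a coverage of at least 20.

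Samples share replicate numbers in their titles. Deviations of same-numbered samples correlated at 0.0021, -0.24 and -0.0834, and those of differently numbered samples at -0.109 to 0.191. With 3 samples a group these values cannot settle whether the numbers pair the samples. The replicate block gave 0 regions and 0 positions past the adjusted threshold, and 204 regions and 1852 positions at an unadjusted p under 0.05.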
